A study of Homo sapiens with 6 samples.

Results

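The pigmentation program of melanoma cells was followed through MITF and 9 genes of melanin synthesis and of the melanosome, TYR, TYRP1, DCT, MLANA, PMEL, SLC45A2, OCA2, GPR143 and MC1R. The members were taken by gene symbol, and every probe annotated to a listed symbol was used, which gave 14 probes of 9 genes among 48803 probes on the array. DCT had no probe under its symbol in the annotation used and was not analysed here. In all, 12 of the 14 probes were detected on at least 3 of 6 arrays and were tested, and these covered 8 of the 10 genes. The cells were WM-266-4, a human melanoma line, stably transfected with CT16 cDNA in the plasmid pEXPR-IBA103 (3 cultures, 1 array each, here called CT16) or with pEXPR-IBA103 without an insert (3 cultures, 1 array each, here called control). CT16, encoded by PAGE5, is a cancer-testis antigen, a class of proteins normally restricted to the testis that tumors can make. The arrays were of 1 colour and gave a fluorescence signal in arbitrary units and a detection p-value for each probe. The sources used here do not say whether each transfected line was a single clone or a pool.

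MITF is the basic helix-loop-helix transcription factor that governs the melanocyte lineage. It binds short promoter elements called the M-box and the E-box and activates the genes of pigment synthesis, and its own melanocyte promoter responds to cAMP raised by the melanocortin receptor MC1R. Melanin is made in the melanosome, where TYR (tyrosinase) carries out the rate-limiting step and TYRP1 and DCT act on later intermediates. PMEL forms the fibrils on which melanin is laid down, MLANA assists PMEL maturation, SLC45A2 and OCA2 set the ionic conditions inside the organelle, and GPR143 is a receptor in its membrane.

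The promoters of the members were searched for the elements through which MITF and cAMP are known to act. Windows running from 250 bases before to 50 bases after the annotated start of the gene were taken from RefSeq (GRCh38.p14), which held 11 windows for 8 of the 10 genes, with none for PMEL or SLC45A2 in the table used. The motifs searched on both strands were the M-box TCATGTG, the E-boxes CATGTG and CACGTG, and the cAMP response element TGACGTCA. The M-box contains the first of these E-boxes, so each M-box match is also an E-box match. The M-box was present in the windows of 4 genes, TYR, TYRP1, DCT and GPR143, whereas 2.92% of 35116 windows of all genes held it. The E-box CATGTG was found in 6 of the 11 windows (11.1% of all windows), adding OCA2 and MC1R, and CACGTG in none (7.26% of all windows). Among the 3 MITF windows, the one of the downstream start held the cAMP response element 152 bases before that start (1.85% of all windows). The MLANA window held none of these letters. Those MITF, TYR, TYRP1 and GPR143 windows are shown because they carry the elements that the pathway is known for. They lie at chr3:69936342-69936641 (plus strand), chr11:89177625-89177924 (plus strand), chr9:12693135-12693434 (plus strand) and chrX:9765798-9766097 (minus strand). Each is written 5′ to 3′ on the strand of the gene. Capitals mark the cAMP response element in MITF, the M-box at -105 and an E-box at -12 in TYR, the M-box at -145 and an E-box on the opposite strand at -11 in TYRP1, and M-boxes on the opposite strand at -61 and -33 in GPR143, counted in bases from the start to the first letter of the match. A match describes the letters only and is no evidence of binding in these cells.
MITF, downstream start: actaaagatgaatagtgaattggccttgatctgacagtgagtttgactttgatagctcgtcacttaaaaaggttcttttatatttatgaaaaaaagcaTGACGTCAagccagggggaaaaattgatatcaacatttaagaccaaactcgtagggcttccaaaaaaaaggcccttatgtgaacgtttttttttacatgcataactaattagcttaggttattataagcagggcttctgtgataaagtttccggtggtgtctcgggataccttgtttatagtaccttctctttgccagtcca
TYR: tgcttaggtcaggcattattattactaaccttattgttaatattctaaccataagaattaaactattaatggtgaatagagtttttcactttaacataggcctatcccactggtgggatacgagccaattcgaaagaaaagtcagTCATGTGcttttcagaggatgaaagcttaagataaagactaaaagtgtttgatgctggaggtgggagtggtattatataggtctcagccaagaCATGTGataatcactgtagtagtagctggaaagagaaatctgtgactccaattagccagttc
TYRP1: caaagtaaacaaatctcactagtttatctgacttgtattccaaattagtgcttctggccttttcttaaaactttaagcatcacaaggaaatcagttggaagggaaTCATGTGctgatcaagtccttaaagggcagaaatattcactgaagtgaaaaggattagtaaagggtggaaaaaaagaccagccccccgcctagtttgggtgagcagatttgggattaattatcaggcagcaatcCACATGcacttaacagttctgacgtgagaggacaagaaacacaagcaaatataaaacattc
GPR143: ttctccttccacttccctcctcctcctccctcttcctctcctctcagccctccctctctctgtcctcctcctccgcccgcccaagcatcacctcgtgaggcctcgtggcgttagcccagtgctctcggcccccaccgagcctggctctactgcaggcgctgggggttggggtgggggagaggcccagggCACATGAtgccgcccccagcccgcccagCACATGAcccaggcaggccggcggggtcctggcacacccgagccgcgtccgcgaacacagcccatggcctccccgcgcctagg

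The arrays differed in the number of probes detected and in their likeness to each other. Between 16200 and 18789 probes were detected per array, with the fewest on CT16 replicate 3, and median signals lay between 63.6 and 65.6. The mean correlation of CT16 replicate 3 with the other arrays was 0.90, and that of each of the remaining arrays 0.96 or 0.97. The precision of every value is limited by 3 arrays in a group. The transfected gene was read by 3 PAGE5 probes, and the brightest had signals of 117, 120 and 171 on CT16 arrays and 80.7, 84.6 and 94.2 on control arrays. Its groups did not overlap, but the log2 difference of 1.10 (SE 0.37) did not pass the threshold (adjusted p = 0.586). A second PAGE5 probe differed by 0.02 and the remaining PAGE5 probe was not detected on any array. Where these probes lie relative to the transfected cDNA was not tested, so they are a limited check of the labels. The study also measured CT16 in these lines by qRT-PCR and at the protein level, which was not analysed here. The labelled cell type was checked by its markers. Of 10 melanoma and melanocyte identity genes 8 were detected and tested, among them SOX10, S100B, MIA and CSPG4, whereas PAX3 was not detected on any array. S100B was dim, with signals from 71.6 to 118, and was detected on 2 CT16 arrays and 3 control arrays. Of the keratinocyte markers with a probe, KRT5, KRT14, KRT1, DSG3 and IVL were not detected on any array, and neither were the immune markers PTPRC and CD3E or the fibroblast markers COL3A1 and POSTN. Other markers on the same lists went the other way. KRT10, CD14, CD68 and FAP were detected on every array, and CDH1, EPCAM, LYZ and LUM on some arrays. The fibroblast markers COL1A1, DCN and PDGFRB and the immune marker MS4A1 were detected on 1 array each and were not tested. The check by absent markers was therefore partial, and the values of the tested markers are given further below.

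No pigmentation gene passed the threshold between CT16 and control cultures. None of the 12 tested probes reached an adjusted p under 0.05 in limma, against 0.204% of all 18156 tested probes (37 probes). At an unadjusted p under 0.05 the count was also 0 of 12, against 6.37% of all tested probes. The log2 difference, CT16 minus control, was positive for 4 probes and negative for 8, between -1.17 (TYRP1) and 0.56 (an MITF probe). With each gene read by its brightest tested probe, the median of the 8 genes was -0.29, beside -0.03 over all 11264 named genes and -0.01 over all tested probes. The groups of arrays did not overlap for 2 of the 12 probes, TYR and PMEL, against 14.1% of all tested probes. As bulk RNA was measured, fewer cells that express a gene and less RNA of it per cell cannot be told apart.

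**Figure D1:**
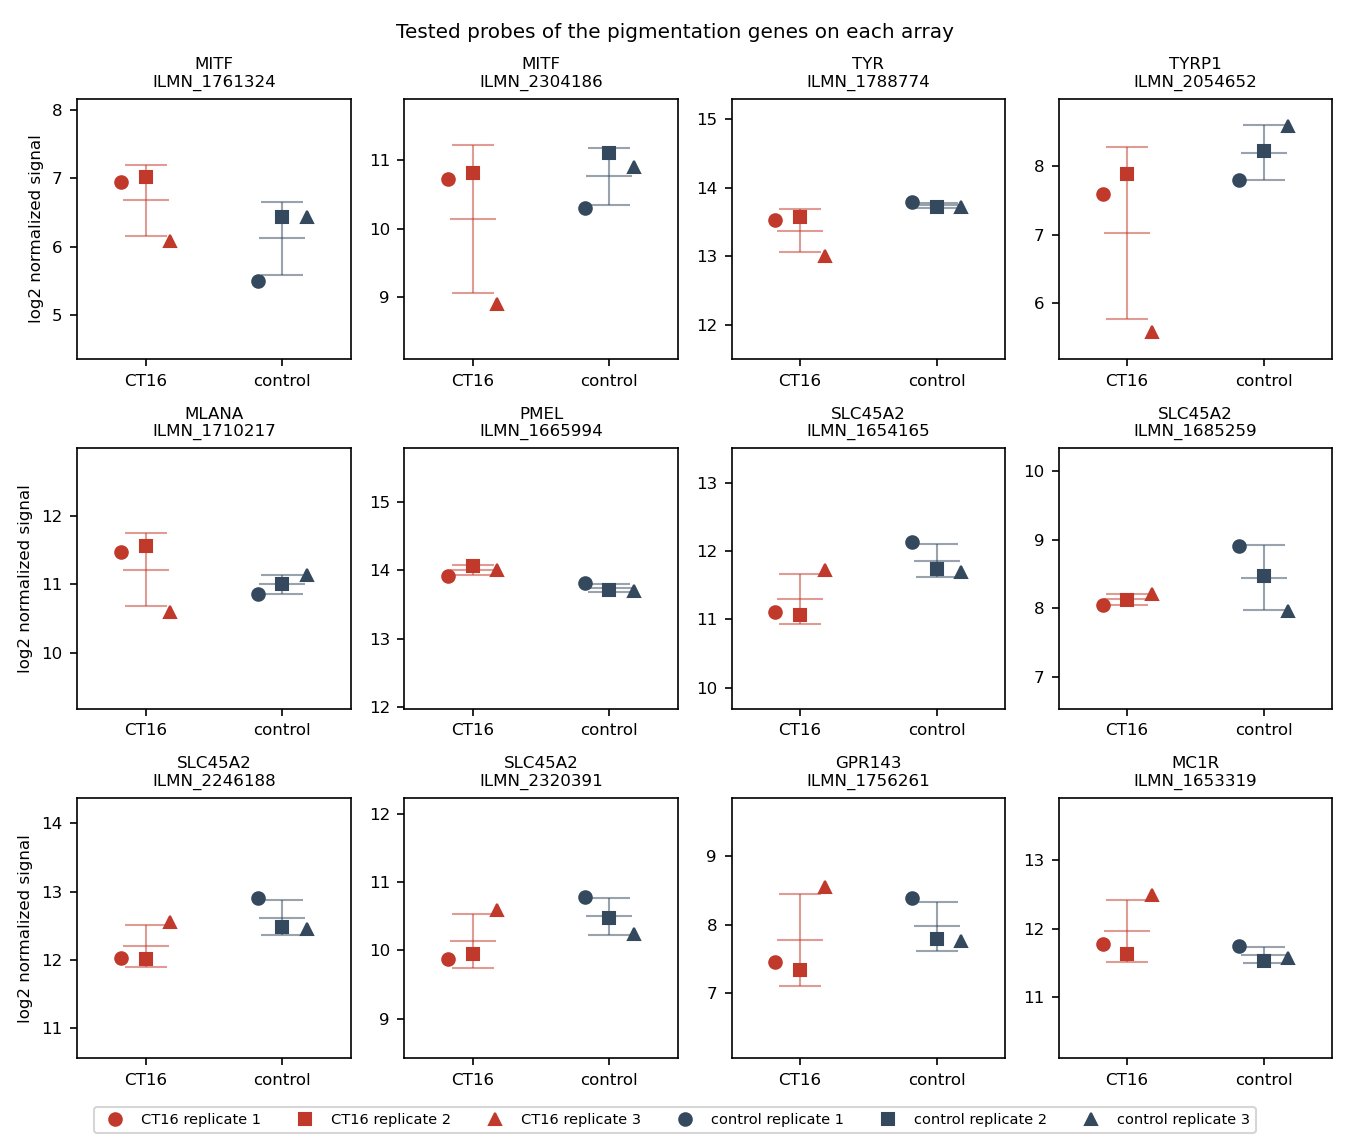
Normalized log2 signal (vertical axis) of the 12 tested probes on each of the 3 CT16 arrays (left of each panel) and the 3 control arrays (right). Symbols mark the replicate number, and bars give the mean and SD of the 3 arrays of a group. Every panel spans the same number of log2 units. CT16 replicate 3 lies far below the other arrays for MITF ILMN_2304186 and TYRP1, and groups stay apart only for TYR and PMEL.

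MITF, the regulator itself, was read by 3 probes, each annotated to a different transcript record. The brightest, ILMN_2304186, had signals of 1679, 1994 and 418 on CT16 arrays and of 1199, 2362 and 1978 on control arrays. CT16 replicate 3 was the lowest of the 6 arrays, and the other CT16 arrays lay within the control range. On the normalized scale the group means were 10.14 ± 1.08 in CT16 and 10.77 ± 0.42 in control (SD, n = 3 each), a log2 difference of -0.62 (SE 0.53, 95% interval -1.86 to 0.61, adjusted p = 0.959). Leaving out CT16 replicate 3 gave 0.002 (SE 0.25, adjusted p = 0.998), so that the sign and size of this difference rested on a single array. It was -0.96 without CT16 replicate 2.

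The probe ILMN_1761324 gave the opposite sign for MITF. Its signals were 167, 191 and 95.5 on CT16 arrays and 83.1, 135 and 133 on control arrays. Replicates 1 and 2 of CT16 were the highest, CT16 replicate 3 lay among the control values, and control replicate 1 was the lowest. The log2 difference was 0.56 (SE 0.37, 95% interval -0.30 to 1.42, adjusted p = 0.959). It was 0.86 (adjusted p = 0.316) without CT16 replicate 3 and 0.25 (adjusted p = 0.887) without control replicate 1. The third probe, ILMN_1657854, was not detected on any array, with signals of 48.9, 47.3 and 46.0 in CT16 and 47.1, 56.1 and 43.4 in control, and no difference was computed for it. The 2 tested MITF probes thus disagreed in sign, and neither passed the test. Over the 6 arrays their normalized values had a Pearson r of 0.46.

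The enzymes of melanin synthesis both had negative differences. TYR signals were 11315, 12185 and 9035 on CT16 arrays and 13480, 14101 and 13235 on control arrays. Each CT16 array was below each control array, and CT16 replicate 3 was the lowest. The log2 difference was -0.38 (SE 0.23, 95% interval -0.92 to 0.17, adjusted p = 0.959), with normalized means of 13.37 ± 0.31 in CT16 and 13.75 ± 0.04 in control (SD, n = 3 each). It was -0.20 (adjusted p = 0.667) without CT16 replicate 3.

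TYRP1, which stabilizes tyrosinase and oxidizes a melanin intermediate in the mouse, had the most negative difference of the tested members. Its signals were 237, 315 and 83.3 on CT16 arrays and 242, 374 and 456 on control arrays. CT16 replicate 3 was far below every other array, CT16 replicate 1 was just under the lowest control array, and CT16 replicate 2 lay inside the control range. The log2 difference was -1.17 (SE 0.59, 95% interval -2.56 to 0.21), with an unadjusted p of 0.0851 and an adjusted p of 0.903. It was -0.45 (SE 0.25, adjusted p = 0.533) without CT16 replicate 3, and -0.66 (adjusted p = 0.149) when control replicate 1 was left out as well. With any other single array left out it ran from -1.61 (without CT16 replicate 2, adjusted p = 0.565) to -0.98 (without control replicate 3).

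Among the melanosome proteins, PMEL and MLANA had positive differences. PMEL signals were 14837, 16923 and 17766 on CT16 arrays and 13856, 13972 and 12914 on control arrays. All 3 CT16 arrays exceeded all 3 control arrays, and CT16 replicate 3 stayed with its group. The log2 difference was 0.26 (SE 0.19, 95% interval -0.19 to 0.71, adjusted p = 0.959), a fold of 1.20. MLANA, known in the clinic as Melan-A, had signals of 2779, 3218 and 1490 on CT16 arrays and 1724, 2226 and 2310 on control arrays. Replicates 1 and 2 of CT16 were above every control array, and CT16 replicate 3 was below every control array. Its log2 difference was 0.22 (SE 0.30, 95% interval -0.49 to 0.92, adjusted p = 0.961), and 0.52 (SE 0.17, adjusted p = 0.296) without CT16 replicate 3. It was 0.09 without CT16 replicate 1, 0.04 without CT16 replicate 2 and 0.15 without control replicate 1.

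SLC45A2, a transporter that raises the pH of the melanosome, was read by 4 probes, and all 4 had negative differences. Its probe ILMN_1654165 had signals of 2189, 2336 and 3501 on CT16 arrays and 4130, 3668 and 3362 on control arrays. Replicates 1 and 2 of CT16 were below the control range, and CT16 replicate 3 was inside it. The log2 difference was -0.56 (SE 0.27, 95% interval -1.18 to 0.07), with an unadjusted p of 0.0722 and an adjusted p of 0.865. The brightest SLC45A2 probe, ILMN_2246188, had signals of 4036, 4429 and 6605 on CT16 arrays and 7147, 6081 and 5602 on control arrays, and ILMN_2320391 had 964, 1136 and 1474 on CT16 arrays and 1637, 1572 and 1290 on control arrays. For both, replicates 1 and 2 of CT16 were again below the control range and CT16 replicate 3 inside it, with log2 differences of -0.41 (SE 0.25) and -0.36 (SE 0.28). The fourth probe, ILMN_1685259, is annotated to a separate transcript record and gave 307, 361 and 268 on CT16 arrays and 481, 441 and 311 on control arrays, a log2 difference of -0.32 (SE 0.28). The adjusted p was 0.959 for each of these last 3 probes. The 4 probes read 1 gene in the same cultures and are not independent of each other. The SLC45A2 differences without CT16 replicate 3 lay between -0.77 (ILMN_1654165, adjusted p = 0.161) and -0.36 (ILMN_1685259, adjusted p = 0.649). When control replicate 1 alone was left out they were smaller in size, between -0.42 (ILMN_1654165) and -0.09 (ILMN_1685259).

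OCA2, the melanosomal chloride channel whose loss causes albinism, was not detected on any array. Its signals were 50.1, 56.7 and 50.5 in CT16 and 54.5, 54.9 and 56.3 in control, and detection p-values ran from 0.323 to 0.846. At this background a level of OCA2 could not be given for either group.

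Of the receptors, MC1R binds melanocyte-stimulating hormone and raises cAMP. It had signals of 3432, 3359 and 6165 on CT16 arrays and 3185, 3206 and 3096 on control arrays. CT16 replicate 3 stood apart at the top, 1.82 times the mean of the other CT16 arrays, and the rest were close together. After normalization the groups overlapped, and the log2 difference was 0.35 (SE 0.28, 95% interval -0.30 to 0.99, adjusted p = 0.959). Without CT16 replicate 3 it was 0.09 (SE 0.17, adjusted p = 0.869). GPR143, which in humans is mutated in ocular albinism and limits melanosome size, had signals of 219, 230 and 336 on CT16 arrays and 349, 291 and 277 on control arrays. Replicates 1 and 2 of CT16 were the lowest, and CT16 replicate 3 and control replicate 1 the highest. The log2 difference was -0.20 (SE 0.37, 95% interval -1.07 to 0.68, adjusted p = 0.969), and -0.58 (SE 0.23, adjusted p = 0.381) without CT16 replicate 3. It was near 0 without CT16 replicate 1 (-0.03), CT16 replicate 2 (0.02) or control replicate 1 (0.01).

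**Figure D2:**
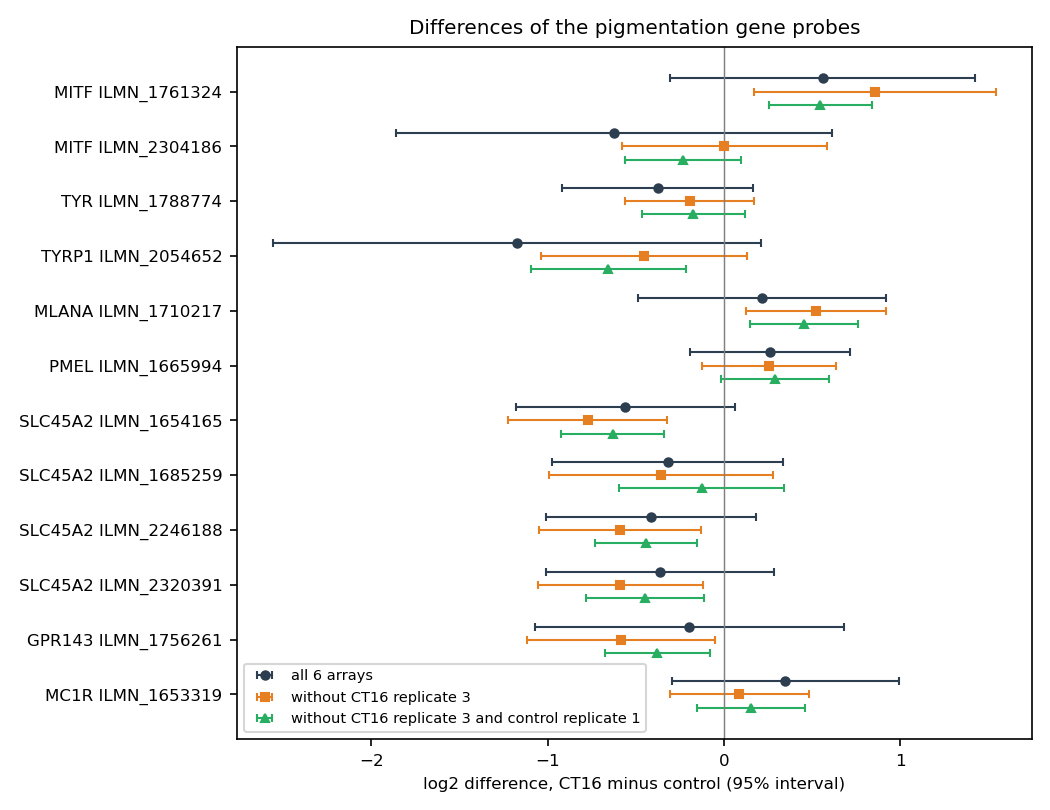
Log2 difference, CT16 minus control, with its 95% interval (horizontal axis) for the 12 tested probes, fitted on all 6 arrays (circles), without CT16 replicate 3 (squares) and without CT16 replicate 3 and control replicate 1 (triangles). Over all 6 arrays every interval holds 0, and leaving out CT16 replicate 3 moves MITF ILMN_2304186 to 0.00 and TYRP1 to -0.45.

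CT16 replicate 3 was lower than the other CT16 arrays for some pigmentation genes and higher for others. Relative to the mean of the other CT16 arrays its log2 values were -2.16 for TYRP1, -1.88 for MITF ILMN_2304186, -0.92 for MLANA, -0.90 for MITF ILMN_1761324 and -0.54 for TYR. They were 1.16 for GPR143, 0.78 for MC1R, between 0.12 and 0.67 for the SLC45A2 probes and 0.02 for PMEL. Over all tested probes 33.9% deviated by more than 1 on this array, and 3 of the 12 probes here did. A deviation at least as negative as that of TYRP1 was seen in 1.65% of tested probes, and one at least as negative as that of MITF ILMN_2304186 in 4.40%. For the remaining member probes the share at least as far in the same direction ran from 8.23% (GPR143) to 53.3% (PMEL). Control replicate 1 deviated in the same direction for 11 of the 12 probes, TYR being the exception, and for 81.1% of all tested probes. Its deviations were smaller, from -0.93 (MITF ILMN_1761324) to 0.70 (SLC45A2 ILMN_1685259). Over all tested probes the deviations of these 2 arrays from their group means correlated with an r of 0.75. The part of this shared pattern in the differences between the groups was not tested.

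**Figure D3:**
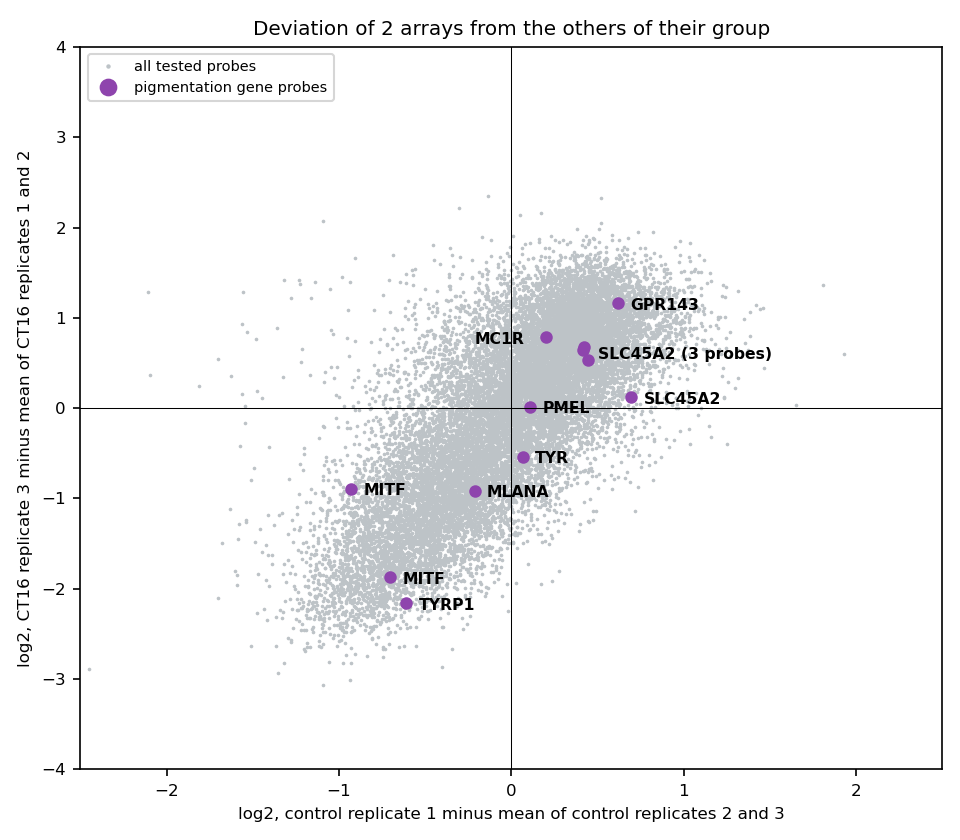
Log2 deviation of CT16 replicate 3 from the mean of CT16 replicates 1 and 2 (vertical axis) against that of control replicate 1 from the mean of control replicates 2 and 3 (horizontal axis). Small dots are all tested probes, of which 3 fall outside the axes, and large dots are the 12 pigmentation gene probes. MITF, TYRP1 and MLANA lie low on both arrays, and GPR143, MC1R and SLC45A2 high on both.

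With the same 2 arrays left out, the intervals narrowed. Both arrays deviated from the others of their group, and leaving out the pair was chosen after that was seen. Narrower intervals and more small p-values follow from such a choice, for all tested probes as for these. The counts below are a description. Without CT16 replicate 3, 0 of the 12 probes passed the threshold, against 1.13% of all tested probes. An unadjusted p under 0.05 was seen for 6, of which 3 were SLC45A2 probes, against 12.0% of all tested probes. Without CT16 replicate 3 and control replicate 1, 0 of 12 passed, against 2.29%. An unadjusted p under 0.05 was found for 7, again with 3 SLC45A2 probes, against 17.1%. The differences then were 0.55 for MITF ILMN_1761324 (adjusted p = 0.0913), -0.23 for MITF ILMN_2304186, 0.45 for MLANA, 0.29 for PMEL, -0.17 for TYR, -0.63 for SLC45A2 ILMN_1654165 (adjusted p = 0.0625), -0.38 for GPR143 and 0.15 for MC1R. A fit with array weights, which are estimated from the spread of the same data, gave CT16 replicate 3 a weight of 0.0704 and control replicate 1 a weight of 0.335, with the other arrays between 1.08 and 4.76. It called 6 of the 12 probes, against 12.4% of all tested probes. These were MITF ILMN_1761324 (0.56, adjusted p = 0.0326) and MLANA (0.45, adjusted p = 0.0312) with higher values in CT16, and TYRP1 (-0.67, adjusted p = 0.0347) and 3 SLC45A2 probes (-0.64, -0.46 and -0.53, adjusted p = 0.00584, 0.0274 and 0.0212) with lower values in CT16. None of these 6 was called with equal weights, whether CT16 replicate 3 was kept or left out.

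The members were not alike in how they varied over the 6 arrays. Taking MITF ILMN_2304186 as the base, Pearson r was 0.95 for TYRP1, 0.86 for TYR and 0.70 for MLANA, whereas it was -0.98 for MC1R, -0.78 for GPR143 and -0.48 for PMEL. For the SLC45A2 probes r lay between -0.46 and -0.08. All genes share the same 6 arrays, and r changed when CT16 replicate 3 was left out. It was then 0.57 for TYRP1, -0.23 for TYR, 0.26 for MLANA and -0.82 for MC1R. Among all 11264 named genes the closest to MITF were ATP6V1C1, a subunit of the proton pump that acidifies organelles (r = 1.000), UBQLN1, a ubiquitin-binding protein (r = 1.000), and GJA3, a gap junction protein (r = 0.999). ATP6V1C1 signals were 246, 296 and 77.7 on CT16 arrays and 172, 356 and 305 on control arrays, and its normalized values ranked the 6 arrays as those of MITF did. As these genes were picked for the highest r among 11264, such values and a like order of arrays follow from the choice. A link of these genes to MITF was not tested. The 6 reference genes took both signs, with r of 0.98 for B2M, 0.97 for HPRT1, 0.66 for ACTB, 0.37 for TBP, -0.72 for GAPDH and -0.86 for PGK1. HPRT1 signals were 2339, 2721 and 1092 on CT16 arrays and 1617, 2608 and 2472 on control arrays.

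The wider pathway was read from lists of genes, each by its brightest tested probe, and in no list did a gene pass the threshold over all 6 arrays. Groups of arrays did not overlap for 3 of 11 factors upstream of MITF, 4 of 19 genes of melanocortin and cAMP signaling, 6 of 22 MITF targets, 8 of 34 genes of melanosome biogenesis, 3 of 18 other pigment genes and 3 of 10 genes of the dedifferentiated state, beside 14.1% of all tested probes. Among factors upstream of MITF, 0 of 11 tested genes passed, with 3 positive and 8 negative differences and a median of -0.20. TFAP2A, a transcription factor of the melanocyte lineage, had signals of 1213, 1398 and 828 on CT16 arrays and 2504, 2712 and 2035 on control arrays. Every CT16 array was below every control array, with a log2 difference of -1.10 (SE 0.24, adjusted p = 0.220). FOXD3, a neural crest factor, had signals of 144, 154 and 115 on CT16 arrays and 244, 174 and 162 on control arrays, and a log2 difference of -0.53 (SE 0.30, adjusted p = 0.959). EDNRB, the endothelin receptor of melanoblasts, was the remaining gene of this list whose groups did not overlap (-0.28). ZEB2, a repressor active in melanocytes, had a log2 difference of -0.95 (SE 0.57), and of -0.23 without CT16 replicate 3. SOX10, which activates MITF, had a log2 difference of -0.08 (SE 0.23). PAX3, another activator of MITF, was not detected on any array.

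Melanocortin and cAMP signaling had 8 positive and 11 negative differences among 19 tested genes, with a median of -0.10. ADCY9, an adenylyl cyclase, had signals of 381, 415 and 295 on CT16 arrays and 678, 627 and 533 on control arrays, without overlap, and a log2 difference of -0.73 (SE 0.23, adjusted p = 0.531). ADCY7, another adenylyl cyclase, had signals of 125, 110 and 107 on CT16 arrays and 94.0, 86.4 and 92.6 on control arrays. Its log2 difference was 0.58 (SE 0.23, adjusted p = 0.736), opposite in sign to that of ADCY9. ATRN, known in the mouse as a co-receptor of agouti protein, had a log2 difference of -0.65 (SE 0.31, adjusted p = 0.869), or -0.34 without CT16 replicate 3. Neither the hormone precursor POMC nor the receptor accessory protein MRAP was detected on any array. Of the MITF family, TFE3 alone was tested, with a log2 difference of -0.14 (SE 0.35), or -0.51 without CT16 replicate 3.

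MITF targets outside pigment synthesis had 6 positive and 16 negative differences among 22 tested genes, with a median of -0.30. CDK2, the cell cycle kinase that MITF regulates in melanoma cells, had signals of 3379, 3541 and 2944 on CT16 arrays and 1732, 2000 and 1882 on control arrays. All CT16 arrays were above all control arrays, with a log2 difference of 0.80 (SE 0.20, adjusted p = 0.319). Without CT16 replicate 3 it was 0.89, with an adjusted p of 0.0493, where 1.13% of all tested probes passed the threshold. Another CDK2 probe, ILMN_1653443, differed by 1.25 (SE 0.21, adjusted p = 0.105) over all 6 arrays. SCD, a fatty acid desaturase, had signals of 3693, 5221 and 2095 on CT16 arrays and 7067, 8503 and 7267 on control arrays. Its log2 difference was -1.18 (SE 0.33, adjusted p = 0.400), and the groups did not overlap. BIRC7, an inhibitor of apoptosis, had signals of 1075, 1093 and 1807 on CT16 arrays and 815, 811 and 769 on control arrays, and a log2 difference of 0.72 (SE 0.30, adjusted p = 0.754), or 0.43 without CT16 replicate 3.

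Melanosome biogenesis and transport had 12 positive and 22 negative differences among 34 tested genes, with a median of -0.17. RAB38, a small GTPase that sorts TYR and TYRP1 to the melanosome, had signals of 4382, 5351 and 2973 on CT16 arrays and 5901, 6759 and 6402 on control arrays. Its groups did not overlap, as those of TYR did not, and the log2 difference was -0.68 (SE 0.26, adjusted p = 0.721), or -0.44 without CT16 replicate 3. SYTL2, an effector of RAB27A, had signals of 1137, 1247 and 259 on CT16 arrays and 1034, 2122 and 2101 on control arrays. It had a log2 difference of -1.22 (SE 0.56, adjusted p = 0.846), and of -0.56 without CT16 replicate 3. SNAPIN, a subunit of the BLOC-1 complex, had a log2 difference of 0.55 (SE 0.26, adjusted p = 0.867), or 0.37 without CT16 replicate 3.

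Genes of melanosomal ion and metal transport and other pigment genes had 9 positive and 9 negative differences among 18 tested, with a median of 0.00. MFSD12, a transporter that imports cysteine into melanosomes, had signals of 876, 1003 and 1521 on CT16 arrays and 2304, 1759 and 1818 on control arrays. Its CT16 arrays were all below the control arrays, with a log2 difference of -0.86 (SE 0.32, adjusted p = 0.703), and of -1.16 (adjusted p = 0.0657) without CT16 replicate 3. SLC7A11, the cystine importer of the cell surface, had a log2 difference of 0.58 (SE 0.25, adjusted p = 0.777). HERC2, the neighbour of OCA2 that holds an enhancer of it, had signals of 718, 639 and 866 on CT16 arrays and 1201, 1109 and 1035 on control arrays. Its log2 difference was -0.59 (SE 0.28, adjusted p = 0.865), and its groups overlapped once normalized.

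Genes of the dedifferentiated melanoma state, in which MITF and pigment genes are known to be low, had 5 positive and 5 negative differences among 10 tested, with a median of 0.01. JUN, a component of the AP-1 factor, had signals of 375, 451 and 407 on CT16 arrays and 731, 720 and 620 on control arrays, and a log2 difference of -0.73 (SE 0.24, adjusted p = 0.560). TNC, a matrix protein, and SOX9, a transcription factor, had log2 differences of -0.66 (SE 0.26) and -0.68 (SE 0.30), also without overlap, and SOX9 of -0.37 without CT16 replicate 3. AXL and NGFR, receptors that mark this state, had log2 differences of 0.19 (SE 0.24) and 0.34 (SE 0.27), with an adjusted p of 0.959 each. Without CT16 replicate 3 these were 0.065 and 0.332. NGFR was dim, with signals from 69.8 to 97.8, and was detected on 3 CT16 arrays and 2 control arrays. WNT5A and LOXL2 of this list were not detected on any array. Among identity markers, ALCAM had a log2 difference of -1.11 (SE 0.40, adjusted p = 0.665), S100A1 of -0.42 (SE 0.35) and MIA of 0.29 (SE 0.23). Leaving out CT16 replicate 3 gave -0.71, -0.75 and 0.14.

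**Figure D4:**
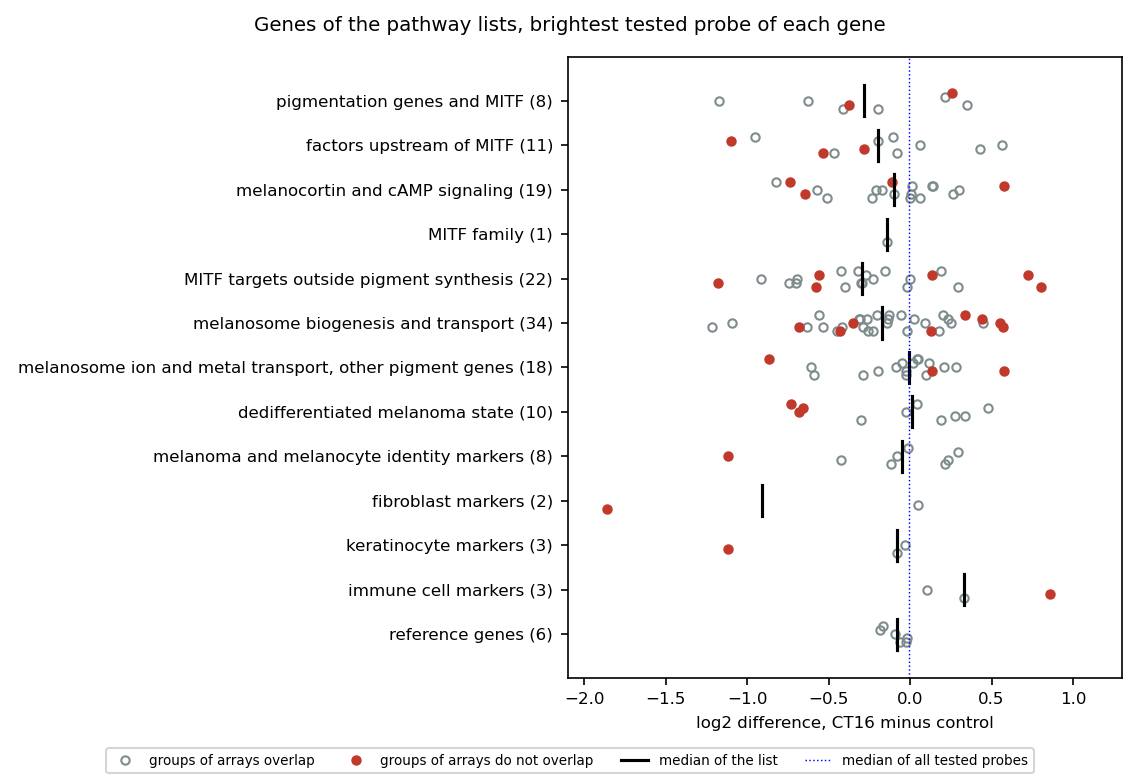
Log2 difference, CT16 minus control, of each tested gene (points, horizontal axis) in the lists named at the left, with the number of tested genes in parentheses. Filled points are genes whose groups of arrays do not overlap, thick bars are list medians, and the dotted line is the median of all tested probes, -0.01. The pigmentation genes have a median of -0.29, the targets of MITF outside pigment synthesis -0.30 and the reference genes -0.08.

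Markers of other cell types were listed beside the pigment genes. The summed signal of the 2 tested fibroblast markers ran from 360 to 1009 on CT16 arrays and from 587 to 882 on control arrays. LUM, a matrix proteoglycan, had signals of 74.6, 88.4 and 56.7 on CT16 arrays and 130, 178 and 187 on control arrays. Its log2 difference was -1.86 (SE 0.31, adjusted p = 0.104), and -1.59 (adjusted p = 0.0163) without CT16 replicate 3. Without that array 1.13% of all tested probes passed the threshold. The summed signal of the 3 tested keratinocyte markers ran from 1264 to 1463 on CT16 arrays and from 1291 to 1678 on control arrays. CDH1, an adhesion protein that melanocytes also make, was detected on 0 CT16 arrays and 3 control arrays and was at least 1.34-fold lower in CT16 (adjusted p = 0.143 over all 6 arrays, and 0.0335 without CT16 replicate 3), a bound that sets each CT16 array at the lowest level of a detected probe. For the 3 tested immune markers the sum ran from 1365 to 1835 on CT16 arrays and from 1106 to 1329 on control arrays. These sums of signals that were not normalized did not overlap. After normalization the groups overlapped for CD14 and LYZ and stayed apart for CD68. CD68, a lysosomal protein of macrophages and other cells, had a log2 difference of 0.86 (SE 0.24, adjusted p = 0.429). CD14 and LYZ differed by 0.33 and 0.11, FAP by 0.05, KRT10 by -0.08 and EPCAM by -0.03 on the log2 scale. Leaving out CT16 replicate 3 gave 0.06 for CD14, -0.05 for LYZ, 0.40 for FAP and -0.19 for EPCAM. Whether these markers bear on the values of the pigment genes was not tested. The reference genes HPRT1, B2M and TBP had log2 differences of -0.18, -0.17 and -0.09, and HPRT1 and B2M changed sign without CT16 replicate 3 (0.18 and 0.05).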

How the data were processed

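Biotin-labelled cRNA of 6 cultures was measured on 1-colour Illumina Human-6 bead arrays. The authors deposited probe intensities that were neither normalized nor background-subtracted, in 48804 rows, and 1 row with a repeated identifier was averaged with the other. A detection p-value for each probe and array stands in the same deposited table. The authors also deposited quantile normalized intensities, which were used as an alternative. They lay within 1% of the deposited signals when these were quantile normalized without background correction or offset. The sources used here name neither the program behind the detection p-values nor the build of the probe design. The authors' methods name the rank product algorithm, which was not run.

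The signals were processed in R 4.3.3 with limma 3.58.1: normexp background correction (nec, negative controls inferred from detection p-values), an offset of 16, quantile normalization and log2. Probes detected (p under 0.01) on at least 3 of 6 arrays were tested with lmFit and eBayes, two-sided, with Benjamini-Hochberg adjustment over all 18156 tested probes and a threshold of 0.05. A fold or log2 difference is CT16 minus control on the scale with the offset, which understates changes of dim probes. Groups did not overlap where every normalized value of the CT16 arrays lay on the same side of every control value. The submitters' design text describes separate cultures, and the labels give no slide or scan date.

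Probes were named from a platform annotation, in which 27578 had 1 symbol, 13 had several and 21212 were not listed. A RefSeq table (GRCh38.p14) held the identifiers of 27541 probes and changed 0 symbols. The members and the gene lists were chosen with earlier results of these data known. Genes named were all members, the up to 3 tested genes of each list with the lowest unadjusted p where none passed, the 3 genes most like MITF by Pearson r, and PAGE5. Any other list gene was chosen with its values in view. The fit was run on simulated data with independent probes and arrays, which cannot show how it handles the shared deviations seen here. Alternatives were no background correction, an offset of 50, median scaling, cyclic loess, the normalized values the authors deposited, 2 other detection filters, each array left out, the replicate number as a block, a trended robust prior, array weights and the mean of a gene's probes. Leaving out CT16 replicate 3 and control replicate 1 together was added after their deviations were seen.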

Additional observations from a re-analysis of the deposited data

How the results depend on the processing

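The number of probes past the threshold, 37 over all 6 arrays, was 23 without background correction, 7 with detection required on all 6 arrays and 2254 with array weights. It ran from 4 to 205 when 1 array was left out, the highest being without CT16 replicate 3, and was 416 without CT16 replicate 3 and control replicate 1. The number of member probes past the threshold was 6 with array weights and 0 under every other alternative in which probes were tested. The median over the 8 genes, -0.29, stayed negative in all alternatives. It ran from -0.35 (without control replicate 3) to -0.10 (without CT16 replicate 3) when 1 array was left out, with -0.18 and -0.15 without CT16 replicate 1 and 2 and -0.13 without control replicate 1. It was -0.20 without CT16 replicate 3 and control replicate 1, and -0.11 with the mean of all tested probes of a gene. Of 204 values of single member probes under the alternatives, 3 changed sign and 6 passed the threshold, all 6 with array weights. With 1 array left out, MITF ILMN_2304186 ran from -0.96 (without CT16 replicate 2) to 0.002 (without CT16 replicate 3), where its sign changed. GPR143 ran from -0.58 (without CT16 replicate 3) to 0.024 (without CT16 replicate 2), and its sign changed there and without control replicate 1 (0.010). The cause was not tested.

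Deviations of same-numbered cultures from their group means correlated at -0.62, 0.61 and -0.59, and those of CT16 replicate 3 and control replicate 1 at 0.75. Deviations from a mean of 3 arrays depend on each other, so these values cannot decide whether replicate numbers pair the samples. With the replicate block 3 probes passed the threshold and 0 of the member probes did, and the median of the members stayed -0.29.

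Signal over background limits the member probes. For 2 of them, 1 of MITF and that of OCA2, there is no difference here because no array detected them. TYRP1 and MITF ILMN_1761324, at the ends of the range of differences, had low signals on some arrays. Their log2 differences, -1.17 and 0.56, were -0.83 and 0.33 without background correction. With the normalized values the authors deposited they were -0.91 and 0.38. TYR and PMEL were among the brighter probes, and saturation of their signal was not tested.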
